A study of Mus musculus with 48 samples.

Results

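The 9 genes of the Hoxd cluster on mouse chromosome 2 (Hoxd1, Hoxd3, Hoxd4, Hoxd8, Hoxd9, Hoxd10, Hoxd11, Hoxd12 and Hoxd13) were taken from an RNA-seq table of 48321 genes by their symbols, and all 9 had a row. RNA was measured in 3 groups of mouse R1 embryonic stem cells of strain 129SV, with 3 libraries each: cells with the Mll3/4 dKO genotype, a double knockout of Mll3 (Kmt2c) and Mll4 (Kmt2d), cells with the Mll3/4 dCD genotype, in which both proteins were catalytically deficient, and wild-type cells (WT). All 3 groups grew in serum-free 2i+LIF medium with the MEK inhibitor PD0325901 and the GSK3 inhibitor CHIR99021, and RNA was purified with oligo(dT) beads. The series holds 48 samples in all, and its title asks about enhancer RNA synthesis and promoter elongation in cells that lack these enzymes or their H3K4 monomethylation. The labels give 1 cell line and 1 genotype name per group, with no count of clones and no statement that replicates were separate cultures. The p-values below therefore reflect library-to-library spread alone, possibly technical, and a clone and its genotype cannot be told apart.

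Hox genes encode homeodomain transcription factors that set position along the body axis, and their order in a cluster follows the order in which they act, from the Hoxd1 end (anterior, early) to the Hoxd13 end (posterior, late). The Hoxd cluster is best known for its work in limbs, digits, the urogenital tract and the posterior trunk. In embryonic stem cells Hox clusters are mostly silent and carry Polycomb marks, and Trithorax-type methyltransferases of the MLL family act against that silencing. Mll3 and Mll4 are the MLL enzymes best known for H3K4 monomethylation at enhancers.

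The promoters of Hoxd13, Hoxd9, Hoxd8 and Hoxd1 are shown first, because the first 3 belong to the highest genes of the cluster in these cells and the last belongs to the opposite end, where no difference passed its test. Each is 300 bases on the plus strand of RefSeq's GRCm38.p6, 250 before and 50 after the gene start, with every CG dinucleotide in capitals. The deposited values were made on mm9, and no position from that build is used here. The windows lie at chr2:74667975-74668274 (Hoxd13), chr2:74697513-74697812 (Hoxd9), chr2:74704365-74704664 (Hoxd8) and chr2:74762730-74763029 (Hoxd1).
Hoxd13: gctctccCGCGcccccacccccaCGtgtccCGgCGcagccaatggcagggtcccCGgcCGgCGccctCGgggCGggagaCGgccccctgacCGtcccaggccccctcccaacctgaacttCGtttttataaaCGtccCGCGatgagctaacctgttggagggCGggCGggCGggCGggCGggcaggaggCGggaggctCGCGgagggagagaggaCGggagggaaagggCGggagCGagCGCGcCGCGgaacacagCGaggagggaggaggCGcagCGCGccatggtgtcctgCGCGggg
Hoxd9: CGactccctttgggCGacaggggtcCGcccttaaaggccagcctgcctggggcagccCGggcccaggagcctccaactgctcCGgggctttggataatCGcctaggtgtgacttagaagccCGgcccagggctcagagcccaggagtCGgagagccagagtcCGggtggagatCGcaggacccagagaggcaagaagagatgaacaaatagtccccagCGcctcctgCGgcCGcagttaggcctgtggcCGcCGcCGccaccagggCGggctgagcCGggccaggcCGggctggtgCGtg
Hoxd8: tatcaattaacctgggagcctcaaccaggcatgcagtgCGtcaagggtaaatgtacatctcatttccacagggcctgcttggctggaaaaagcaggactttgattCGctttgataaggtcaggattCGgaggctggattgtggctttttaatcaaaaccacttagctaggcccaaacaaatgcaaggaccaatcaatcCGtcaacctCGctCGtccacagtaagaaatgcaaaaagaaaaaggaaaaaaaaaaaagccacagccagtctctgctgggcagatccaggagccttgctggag
Hoxd1: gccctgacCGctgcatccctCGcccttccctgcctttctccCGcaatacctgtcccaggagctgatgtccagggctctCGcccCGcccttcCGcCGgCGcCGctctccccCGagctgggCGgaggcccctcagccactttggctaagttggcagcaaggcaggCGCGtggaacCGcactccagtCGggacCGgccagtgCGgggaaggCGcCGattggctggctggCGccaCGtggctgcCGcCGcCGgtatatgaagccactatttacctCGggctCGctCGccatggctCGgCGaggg
The Hoxd13 window held 37 CG, and 5.58% of the 32851 promoter windows of the RefSeq table held at least as many. The Hoxd9 window held 20 CG and the Hoxd1 window 29, while the Hoxd8 window held 6, near the median of 7 over all windows. Of the genes not shown, Hoxd10 had 22 CG, Hoxd3 had 20, Hoxd12 had 13 and Hoxd4 had 4, and the 2 windows of Hoxd11 had 4 and 25. The 3 highest genes of the cluster thus had CG counts of 37, 20 and 6, on both sides of the median. Letters of 4 motifs were searched on both strands. TATAAA was found in the Hoxd13 window, at -126 and -124 from the gene start, and in the Hoxd4 window, and 13.6% of all windows held it. AGGTCA, letters of a nuclear receptor motif, was found in the Hoxd8 window at -135, and in those of Hoxd3, Hoxd4 and Hoxd10, against 16.3% of all windows. TTTAT, the core of a Cdx motif, was found in windows of Hoxd3, Hoxd4, Hoxd11 and Hoxd13, against 40.0% of all windows. Its matches in the Hoxd13 window overlap TATAAA, and of its 6 matches in the Hoxd4 window only that at -10 does. TGATNNAT, letters of a Hox-Pbx motif, was found in 1 Hoxd11 window, against 8.85% of all windows.

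Across the cluster, dKO cells held more Hoxd RNA than dCD or WT cells. The summed level of the 9 genes was 48.0, 49.2 and 46.1 TPM (a level per gene length and library size) in dKO libraries 1 to 3, 16.1, 15.8 and 16.5 TPM in dCD and 18.2, 19.6 and 19.9 TPM in WT. The mean sum was 2.48 times that of WT in dKO and 0.837 times that of WT in dCD, and the 3 groups of libraries did not overlap. Read counts could be recovered, since each TPM value times its gene length came in whole steps in every library. These sums rest on 940 to 1223 reads per dKO library, 378 to 674 per dCD library and 304 to 580 per WT library, of 25956251 to 33392132 reads per library in dKO, 31833673 to 56249770 in dCD and 21090624 to 40519709 in WT. More cells with Hoxd RNA and more Hoxd RNA per cell cannot be told apart in bulk RNA.

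Of the 9 genes, 5 reached 1 TPM in at least 3 of the 9 libraries and were tested with limma on log2(TPM + 1): Hoxd8, Hoxd9, Hoxd10, Hoxd11 and Hoxd13. A gene is called higher or lower, or said to have passed, at a p-value adjusted over all tested genes below 0.05. Hoxd8, Hoxd9 and Hoxd13 were above 1 TPM in every library of all groups. Hoxd10 and Hoxd11 reached 1 TPM in dKO libraries alone, so they could enter the test only by being high there, and their calls are given as values and not as support. In dKO against WT the other 3, Hoxd8, Hoxd9 and Hoxd13, were all higher, where 43.4% of the 16179 tested genes were higher and 28.4% lower. The median log2 fold change was 1.09 over these 3 genes and 0.10 over all tested genes. Against dCD all 3 were higher in dKO too, where 42.3% of tested genes were higher and 27% lower. Compared with WT, dCD had none of the 5 tested Hoxd genes higher and 1 lower, where 28.9% of tested genes were higher and 29.5% lower. The dKO and dCD contrasts share the 3 WT libraries. Under a median-ratio scaling of the libraries the median of all genes in dKO against WT moved to 0.01, and the split of calls moved to 5636 higher and 5650 lower, against 7021 and 4596 as reported. For dKO against dCD it moved to 5290 higher and 5531 lower, against 6846 and 4374. Hoxd8, Hoxd9 and Hoxd13 passed as higher in both under that scaling. Large shares of all genes passed these tests, so the sizes below carry more than the calls.

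**Figure D1:**
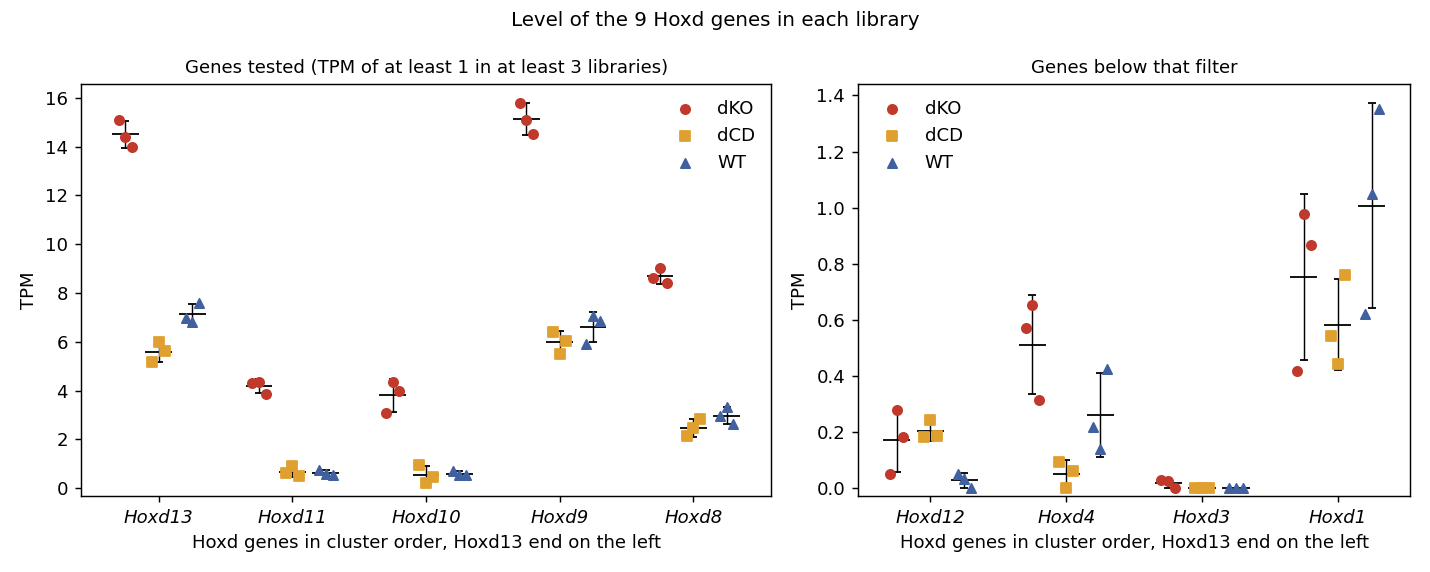
Level of each Hoxd gene in TPM (vertical axes, linear) in the 3 dKO, 3 dCD and 3 WT libraries, in cluster order with the Hoxd13 end on the left; points are libraries, the bar is the mean and the error bars are SD. In the left panel the dKO libraries stand above all dCD and WT libraries for Hoxd8, Hoxd9 and Hoxd13. They also do for Hoxd10 and Hoxd11, where the filter required it. The share of all tested genes with such a separation was not computed. The right panel has its own axis, up to 1.4 TPM, for the 4 genes below the filter.

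Hoxd13, at the posterior end, shapes digits and the urogenital tract. It measured 15.1, 14.4 and 14.0 TPM in dKO, 5.16, 5.99 and 5.63 TPM in dCD and 6.99, 6.83 and 7.59 TPM in WT. The 3 groups did not overlap: dKO was the highest and dCD the lowest. The dKO mean of 14.5 ± 0.592 TPM was 2.03 times the WT mean of 7.14 ± 0.404 TPM (SD, n = 3 each). Its log2 difference in dKO against WT was 0.93 (SE 0.0628, limma adjusted p = 3.11e-07), with 291 to 354 reads per dKO library and 120 to 209 per WT library. In dCD it fell by 0.30 on the log2 scale against WT (SE 0.0628, limma adjusted p = 0.00193), a mean of 5.59 ± 0.415 TPM or 0.783 times the WT mean. Leaving out any single library kept this difference between -0.35 and -0.26, with adjusted p-values of at most 0.00828. Hoxd13 thus rose in dKO and fell in dCD, and dKO exceeded dCD by 1.24 (SE 0.0628, limma adjusted p = 4.49e-08).

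Hoxd9, which patterns the lumbar and sacral skeleton together with its paralogues, overlapped Hoxd13 in level in all 3 lines. It measured 15.8, 15.1 and 14.5 TPM in dKO, 6.39, 5.51 and 6.04 TPM in dCD and 5.90, 7.06 and 6.84 TPM in WT. The dKO libraries stood apart, and those of dCD and WT overlapped. The dKO mean of 15.1 ± 0.639 TPM was 2.29 times the WT mean of 6.60 ± 0.619 TPM, a log2 difference of 1.09 (SE 0.0726, limma adjusted p = 2.84e-07). In dCD, at a mean of 5.98 ± 0.442 TPM, it differed from WT by -0.12, which did not pass (SE 0.0726, limma adjusted p = 0.178). Leaving out WT replicate 1 brought that to -0.19 and past the threshold (adjusted p = 0.0396). The dKO level exceeded that of dCD by 1.21 (limma adjusted p = 1.6e-07).

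Hoxd8, a trunk-level gene on the other side of Hoxd9, measured 8.61, 9.03 and 8.40 TPM in dKO, 2.12, 2.45 and 2.83 TPM in dCD and 2.95, 3.34 and 2.63 TPM in WT. Its dKO libraries stood apart from all others, and those of dCD and WT overlapped. The dKO mean of 8.68 ± 0.321 TPM was 2.92 times the WT mean of 2.97 ± 0.354 TPM, the highest ratio among the 3 genes that were above 1 TPM in all libraries. The log2 difference was 1.29 (SE 0.0931, limma adjusted p = 5.37e-07). In dCD, at 2.47 ± 0.360 TPM, the difference from WT of -0.20 did not pass (SE 0.0931, limma adjusted p = 0.0917). It passed without dCD replicate 3, at -0.27 (adjusted p = 0.0337), and without WT replicate 3, at -0.26 (adjusted p = 0.046). Between the mutant lines, dKO exceeded dCD by 1.49 (limma adjusted p = 2.22e-07).

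Hoxd11, which with Hoxa11 forms the forearm bones and acts in the kidney, stayed below 1 TPM in dCD and WT and was above 3 TPM in dKO. It measured 4.32, 4.37 and 3.86 TPM in dKO, 0.613, 0.907 and 0.518 TPM in dCD and 0.763, 0.578 and 0.559 TPM in WT. No dKO library overlapped the others, and dCD and WT libraries lay among each other. These levels rest on 141 to 182 reads per dKO library, 28 to 37 per dCD library and 15 to 30 per WT library. The ratio of mean TPM was 6.61 in dKO over WT and 1.07 in dCD over WT.

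Hoxd10, which acts in lumbar motor neurons and the hindlimb, had the same pattern at 3.06, 4.34 and 4.00 TPM in dKO, 0.964, 0.227 and 0.454 TPM in dCD and 0.708, 0.536 and 0.519 TPM in WT. The dKO libraries were again the highest, and dCD replicate 2, with 4 reads, was the lowest of all. The ratio of mean TPM was 6.47 in dKO over WT and 0.934 in dCD over WT. With log2(TPM + 1), where differences of low genes come out too small, the dKO difference from WT was 1.67 for Hoxd11 (SE 0.112) and 1.59 for Hoxd10 (SE 0.173). With limma's voom on the reads recovered from the TPM values, where the offset is added to reads and not to TPM, it was 2.62 for Hoxd11 and 2.55 for Hoxd10, while Hoxd13 stayed at 0.93 and Hoxd9 was at 1.08. In dCD against WT neither passed, with Hoxd11 at 0.04 (limma adjusted p = 0.81) and Hoxd10 at -0.06 (limma adjusted p = 0.785). Both of these small differences changed sign when dCD replicate 2 was left out. The annotated spans of Hoxd11 and Hoxd10 overlap in RefSeq, so some reads could belong to either.

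**Figure D2:**
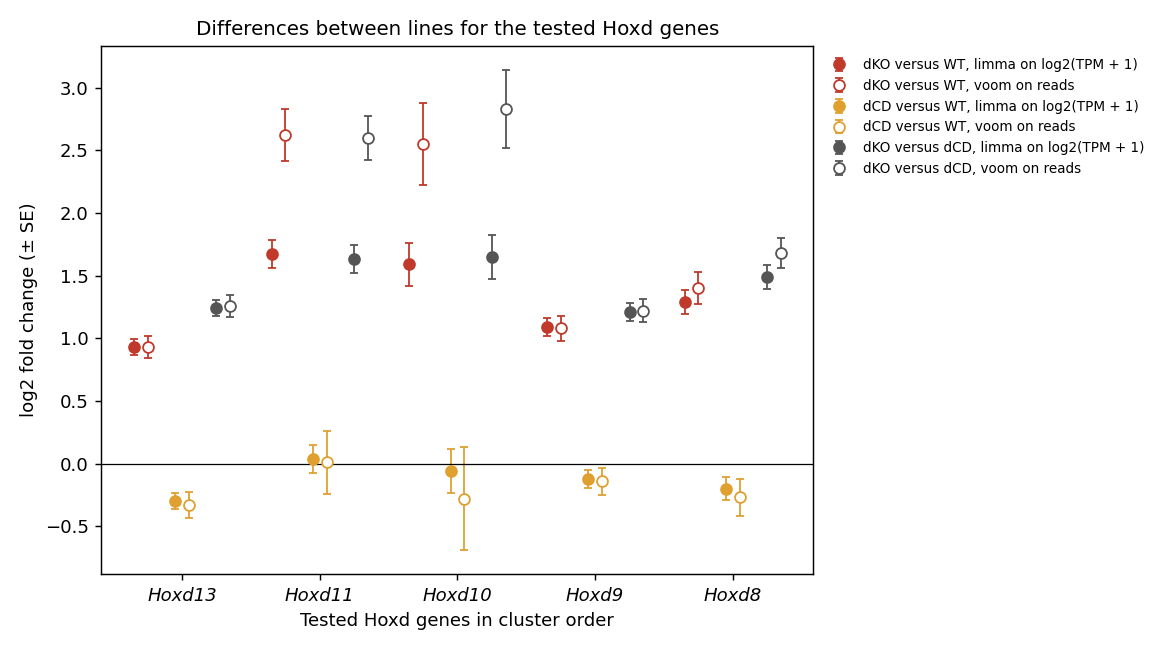
Log2 fold change (vertical axis) of the 5 tested Hoxd genes in dKO versus WT, dCD versus WT and dKO versus dCD, from limma on log2(TPM + 1) (filled) and from voom on recovered reads (open); bars are SE. The dKO contrasts lie between 0.93 and 2.83 and the dCD versus WT contrast between -0.33 and 0.04, and the 2 scales differ most for Hoxd10 and Hoxd11.

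The remaining 4 genes stayed below 1 TPM in most libraries and were examined by reads and by the same fit without a filter, over 31900 genes. In that fit none of the 4 passed in dKO against WT, where 23.5% of genes were higher and 16.4% lower. Hoxd12 was the one gene of the posterior group, Hoxd9 to Hoxd13, below the filter: it lies between Hoxd13 and Hoxd11 and, like them, acts in limbs and digits. It had 1, 7 and 4 reads in the dKO libraries, 5, 6 and 8 in dCD and 1, 1 and 0 in WT, levels of 0.051 to 0.279 TPM in dKO, 0.182 to 0.244 TPM in dCD and at most 0.0507 TPM in WT. Per recovered read its ratio was 5.91 in dKO over WT (95% exact interval 1.32 to 54.4) and 6.69 in dCD over WT (1.61 to 59.2), intervals that cover counting error only. In the unfiltered fit dCD was higher than WT by 0.23 (limma adjusted p = 0.0339), where 16.3% of genes were higher and 15.0% lower. Leaving out any one library kept the difference at 0.20 to 0.24 but ended that call, with adjusted p-values of 0.0649 to 0.107. The call held with a pseudocount of 0.1, at 1.27 (limma adjusted p = 0.0268), and with voom, at 2.18 (limma adjusted p = 0.0029). The dKO difference from WT was 0.18 (limma adjusted p = 0.0654); it passed without dKO replicate 1, at 0.26 (adjusted p = 0.00447), and with voom, at 1.76 (limma adjusted p = 0.0214). In the unfiltered fit on log2(TPM + 1), dKO and dCD differed by -0.04 (limma adjusted p = 0.671).

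Hoxd4, which acts in the hindbrain and the neck vertebrae, had 13, 19 and 8 reads in the dKO libraries, 3, 0 and 3 in dCD and 5, 5 and 8 in WT. Its levels were 0.570, 0.652 and 0.313 TPM in dKO, 0.0938, 0 and 0.060 TPM in dCD and 0.218, 0.138 and 0.426 TPM in WT. The dKO and WT libraries overlapped, and all dCD libraries lay below both. In the unfiltered fit dKO exceeded dCD by 0.52 (limma adjusted p = 0.00446), where 21.8% of genes were higher and 16.3% lower, and the call held without any single library (adjusted p-values of 0.00278 to 0.0248). The dKO difference from WT was 0.26 (limma adjusted p = 0.0922), and it passed without dKO replicate 3, at 0.36 (adjusted p = 0.027), or without WT replicate 3, at 0.35 (adjusted p = 0.0309). The dCD difference from WT was -0.26 (limma adjusted p = 0.115), but on the recovered reads voom gave -2.16 (limma adjusted p = 0.00937), so the call depends on the scale.

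Hoxd3, whose known work is in the vertebrae at the base of the skull, had 1, 1 and 0 reads in the dKO libraries and 0 in every dCD and WT library. No ratio is given, since all groups were at or under 3 reads. Hoxd1, the most anterior gene, which in mice acts in pain-sensing neurons, measured 0.416, 0.977 and 0.866 TPM in dKO, 0.544, 0.443 and 0.760 TPM in dCD and 0.621, 1.05 and 1.35 TPM in WT. The 3 groups overlapped, and no contrast passed in the unfiltered fit: the dKO difference from WT was -0.19 (limma adjusted p = 0.448) and the dCD difference was -0.33 (limma adjusted p = 0.21). Per recovered read its ratio was 0.764 in dKO over WT (95% exact interval 0.487 to 1.19), an interval that covers counting error only. Whether Hoxd1 differed from the tested Hoxd genes in this ratio was not tested. Its dCD over WT ratio was 0.618 (0.4 to 0.95), an interval for counting error that lies below 1, while the fit over libraries did not pass.

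The order of levels within a line changed little at the top. Hoxd9 and Hoxd13 led in all 3 lines and overlapped each other, and Hoxd8 followed without overlap. In dKO the next were Hoxd11 and Hoxd10, which overlapped each other and stood clear of Hoxd1 at 0.753 TPM. In dCD, at means of 0.549 to 0.679 TPM, and in WT, at means of 0.588 to 1.01 TPM, Hoxd11, Hoxd10 and Hoxd1 could not be ordered beyond the spread of neighbours. As a share of the summed Hoxd TPM, Hoxd11 made up 8.75 ± 0.34% in dKO, 4.24 ± 1.36% in dCD and 3.32 ± 0.761% in WT (SD, n = 3 each). Hoxd10 made up 7.96 ± 1.37% in dKO, 3.40 ± 2.35% in dCD and 3.08 ± 0.706% in WT. Hoxd13 had the opposite order, at 30.4 ± 1.12% in dKO, 34.7 ± 2.97% in dCD and 37.1 ± 1.94% in WT.

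The genes around the cluster were compared in the same fits. Evx2, a homeobox gene next to Hoxd13, had 1 read in dKO, 1 in dCD and 0 in WT over all libraries. Lnp (Lnpk, an endoplasmic reticulum protein gene beyond Evx2) averaged 10.3 ± 0.796 TPM in dKO, 7.84 ± 0.605 TPM in dCD and 7.51 ± 0.276 TPM in WT, a log2 difference of 0.41 in dKO against WT (SE 0.0692, limma adjusted p = 0.000321). Mtx2, a mitochondrial import gene on the Hoxd1 side, averaged 45.6 ± 0.85 TPM in dKO, 34.6 ± 1.76 TPM in dCD and 31.0 ± 0.65 TPM in WT (SD, n = 3 each). It rose in dKO by 0.54 (SE 0.0386, limma adjusted p = 4.83e-07) and in dCD by 0.15 (SE 0.0386, limma adjusted p = 0.00686). Hnrnpa3, farther out on that side, averaged 871 TPM in dKO, 850 TPM in dCD and 846 TPM in WT and passed in no contrast, though its small dKO difference from WT (0.04) changed sign to -0.06 with voom and then passed (limma adjusted p = 0.0211). Both genes that flank the cluster at detectable levels thus rose in dKO, where 43.4% of all tested genes were higher. They rose by less than Hoxd8, Hoxd9 and Hoxd13. Under median-ratio scaling the dKO difference from WT was 0.32 for Lnp and 0.44 for Mtx2.

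Noncoding genes inside the cluster were near zero. Hoxd3os1, antisense to Hoxd3, had 31 reads over the dKO libraries, 8 over dCD and 4 over WT, and in the unfiltered fit dKO exceeded WT by 0.42 (limma adjusted p = 0.00409). Haglr, a noncoding gene near Hoxd1, had 14 reads in dKO, 5 in dCD and 14 in WT. Mir10b was listed at 0 in every library. The strand setting of the counting is not given in the sources used here, so reads of Hoxd3, Hoxd3os1 and the overlapping part of Hoxd4 cannot be assigned with certainty.

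Among tested Hox genes, the Hoxd gene had the lowest dKO log2 fold change against WT in paralogue groups 8, 10, 11 and 13. In groups 8, 10 and 11 its tested paralogues could enter only by being high in dKO, so this order is not support. Hoxb8, below the filter at 0.233 TPM in dKO and 0.113 TPM in WT, had a ratio of mean TPM of 2.06. That ratio is below the 2.92 of Hoxd8. In group 9, Hoxd9 and Hoxb9 were close on the log2(TPM + 1) scale, and their ratios of mean TPM were 2.29 and 3.04. Paralogues of one number descend from one ancestral gene and often act together. In group 10, Hoxa10 averaged 89.7 ± 2.84 TPM in dKO, 0.437 ± 0.105 TPM in dCD and 0.607 ± 0.0498 TPM in WT, and its dKO log2 fold change of 5.82 compares with 3.13 for Hoxc10 and 1.59 for Hoxd10. In group 9, Hoxa9 was at 5.21, Hoxc9 at 3.09, Hoxd9 at 1.09 and Hoxb9 at 1.08. In group 11, Hoxa11 was at 4.36, Hoxc11 at 2.91 and Hoxd11 at 1.67, and in group 8 Hoxc8 was at 2.30 and Hoxd8 at 1.29. In group 13, Hoxa13 was at 2.72, Hoxb13 at 2.69, Hoxc13 at 1.15 and Hoxd13 at 0.93. All of these passed (limma adjusted p of at most 1.35e-05), though Hoxa9, Hoxa10, Hoxa11, Hoxa13, Hoxc8, Hoxc10 and Hoxc11, like Hoxd10 and Hoxd11, entered the test only through dKO, and the differences between paralogues were not tested. In WT the Hoxd13 mean of 7.14 TPM stood above those of Hoxa13 (0.310 TPM) and Hoxb13 (1.11 TPM) and below that of Hoxc13 (15.5 TPM), and Hoxd9 at 6.60 TPM stood above Hoxa9, Hoxb9 and Hoxc9 at 0.202 to 1.23 TPM.

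In dCD against WT, where the shares over all genes were 28.9% higher and 29.5% lower, 5 of 11 tested Hoxa genes and 3 of 4 tested Hoxb genes were higher and none lower, with median log2 fold changes of 0.26 and 0.65, whereas 0 of 5 tested Hoxd genes were higher and the median was -0.12. Of the 9 Hoxc genes, 5 were higher and 1 lower, with a median of 0.33. The one that fell was Hoxc13, by 0.41 on the log2 scale (SE 0.0507, limma adjusted p = 5.66e-05), at 11.4 ± 0.758 TPM in dCD and 15.5 ± 0.732 TPM in WT. Hoxc13 and Hoxd13, the 2 paralogues of group 13 with the highest WT levels, both fell in dCD and both rose in dKO, while Hoxb13 rose in dCD by 0.54 (SE 0.0944, limma adjusted p = 0.000667) and Hoxa13, at 0.20, did not pass (limma adjusted p = 0.119; with a pseudocount of 0.1 it passed, at 0.60 and adjusted p = 0.0497). In dKO, 7 of 11 tested Hoxa, 1 of 4 Hoxb and 5 of 9 Hoxc genes passed the filter only through the dKO libraries, so that they had to be high there. Of the rest, 4 of 4 Hoxa, 3 of 3 Hoxb and 4 of 4 Hoxc genes were higher, against 43.4% of all tested genes, with median log2 fold changes of 3.28, 1.08 and 1.59, beside 1.09 for Hoxd8, Hoxd9 and Hoxd13. Hoxb4 in dKO (0.32) and Hoxc8 in dCD (0.33), which these counts include, lost their calls without single libraries. These are counts of lists and not a test between clusters.

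**Figure D3:**
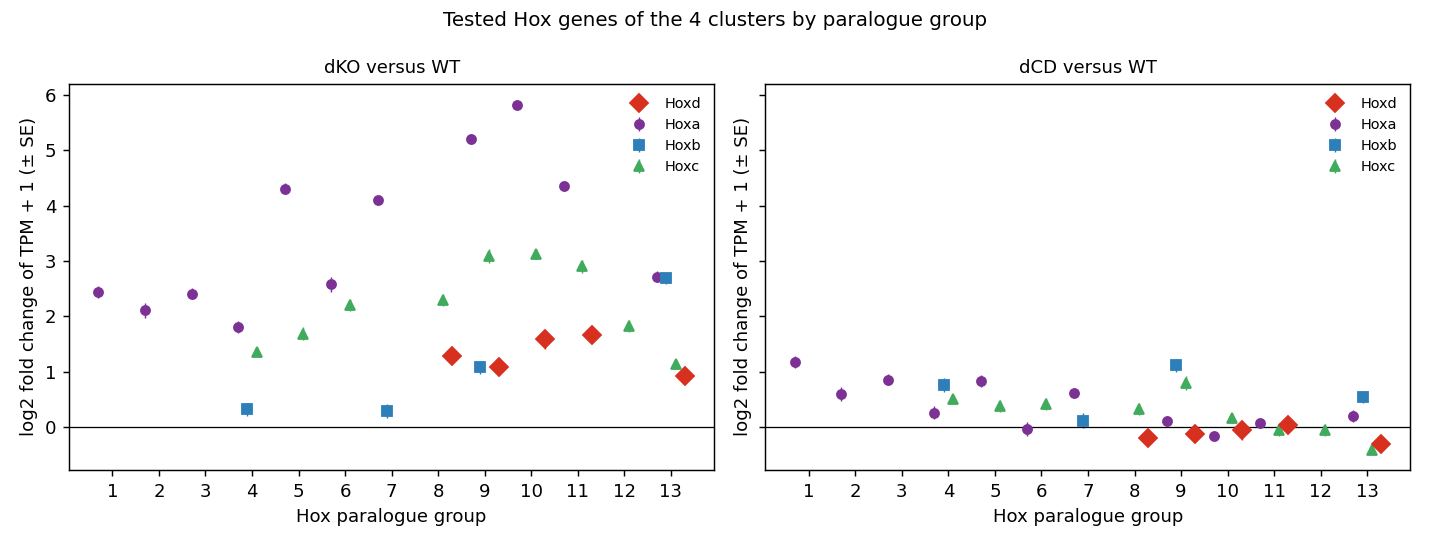
Log2 fold change of TPM + 1 (vertical axes) by Hox paralogue group (horizontal axes) for the tested genes of the 4 clusters, in dKO versus WT (left) and dCD versus WT (right); bars are SE and are mostly smaller than the symbols. Hoxd genes lie between 0.93 and 1.67 on the left, with most Hoxa and Hoxc genes of groups 8 to 11 above them, and between -0.30 and 0.04 on the right.

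Genes of the machinery around Hox genes were read from lists, whose counts stand beside shares of 43.4% higher and 28.4% lower over all tested genes in dKO against WT, and 28.9% higher and 29.5% lower in dCD against WT. The TALE cofactors (Pbx, Meis and Pknox proteins), which bind DNA together with Hox proteins, had 5 of 9 tested members higher and 3 lower in dKO, and 6 higher and 2 lower in dCD; the dKO counts are near the shares over all genes. Meis1 averaged 7.36 ± 0.418 TPM in dKO, 2.05 ± 0.161 TPM in dCD and 0.605 ± 0.0401 TPM in WT, log2 fold changes of 2.38 in dKO and 0.92 in dCD (limma adjusted p = 1.49e-09 and 3.96e-06). Pbx3 rose in dKO by 1.23 (limma adjusted p = 3.67e-08), at 15.0 ± 0.510 TPM in dKO, 5.82 ± 0.306 TPM in dCD and 5.81 ± 0.469 TPM in WT, and dKO exceeded dCD by as much (1.23, limma adjusted p = 4.91e-08). Pknox2 fell in dKO and rose in dCD, with log2 fold changes of -0.54 and 1.46 (limma adjusted p = 1.87e-05 and 2.2e-08).

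Axial inducers (Cdx, retinoic acid and Wnt genes that switch Hox clusters on in the embryo) had 4 of 11 tested members higher and 6 lower in dKO, and 4 higher and 2 lower in dCD. Cdx1, a direct Hox activator, averaged 8.46 ± 1.69 TPM in dKO, 30.2 ± 1.86 TPM in dCD and 34.6 ± 1.87 TPM in WT. It fell by 1.92 on the log2 scale in dKO (limma adjusted p = 7.17e-08). Cdx2 was above WT in both mutant lines, at 1.2 TPM in dKO, 4.08 TPM in dCD and 0.572 TPM in WT. Wnt3a was below WT in both, at 0.0417 TPM (3 reads) in dKO, 0.648 TPM in dCD and 2.0 TPM in WT. Aldh1a2, which makes retinoic acid, fell by 1.66 in dKO (limma adjusted p = 8.12e-09), at 2.39 ± 0.145 TPM in dKO, 9.50 ± 0.0968 TPM in dCD and 9.76 ± 0.945 TPM in WT. The retinoic acid receptor gene Rarg fell by 0.93 in dKO (limma adjusted p = 3.4e-09) and by 0.33 in dCD (limma adjusted p = 2.04e-05). The receptor genes Rara and Rarb were above WT in dKO. Rara averaged 70.9 TPM in dKO, 48.4 TPM in dCD and 51.0 TPM in WT, and Rarb 1.99, 1.72 and 1.07 TPM. Cyp26a1, which degrades retinoic acid, rose in dKO by 1.92 and in dCD by 1.02 (limma adjusted p = 3.63e-08 and 9.52e-06). The median of this list in dKO was -0.59, against 0.10 over all tested genes.

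Polycomb genes, which keep Hox clusters silent, had 12 of 26 members higher and 10 lower in dKO, and 13 higher and 8 lower in dCD, with medians of 0.08 and 0.07. In dKO the share of higher Polycomb genes was near that of all genes. Aebp2, an accessory subunit of Polycomb repressive complex 2, fell by 0.76 in dKO (limma adjusted p = 8.93e-09), at 44.7 ± 0.761 TPM in dKO, 88.0 ± 1.20 TPM in dCD and 76.7 ± 3.30 TPM in WT. Jarid2, another accessory subunit, rose in dKO by 0.58 (limma adjusted p = 2.21e-08). Phc1, of Polycomb repressive complex 1, fell by 0.39 in dKO and fell by 0.67 in dCD, and its relative Phc2 rose in both, by 0.87 and 0.75. Genes of the MLL1/2 complexes and the H3K27 demethylases had 5 of 10 members higher and 4 lower in dKO, and 2 higher and 5 lower in dCD. Wdr5, a subunit shared by all MLL complexes, fell by 0.67 in dKO (limma adjusted p = 1.02e-09), at 251 ± 5.95 TPM in dKO, 329 ± 1.77 TPM in dCD and 400 ± 3.97 TPM in WT. Ash2l, another shared subunit, fell by 0.47 in dKO, and Rbbp5 and Psip1 rose by 0.45 and 0.38.

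Of the targeted genes, Kmt2c measured 7.44 to 8.0 TPM in dKO, 25.3 to 28.6 TPM in dCD and 19.7 to 21.9 TPM in WT, lower in dKO (limma adjusted p = 8.37e-09). Kmt2d measured 84.8, 80.5 and 83.5 TPM in dKO, 67.2, 54.6 and 67.8 TPM in dCD and 67.4, 65.2 and 66.6 TPM in WT, so its whole-gene RNA was higher in dKO (log2 fold change 0.32, limma adjusted p = 0.00194), and the deleted part is not resolved by a value per gene. The 10 naive embryonic stem cell markers summed to 7090 to 7160 TPM in dKO, 6360 to 6590 TPM in dCD and 8740 to 8830 TPM in WT, none of them at 0. Of these 10, 2 were higher and 7 lower in dKO, and 0 higher and 9 lower in dCD. Sox2 averaged 774 TPM in dKO, 734 TPM in dCD and 1240 TPM in WT. Esrrb averaged 428 TPM in dKO, 347 TPM in dCD and 611 TPM in WT. Klf4 and Klf5 were above WT in dKO and below it in dCD. Klf4 averaged 808 TPM in dKO, 384 TPM in dCD and 475 TPM in WT. Klf5 averaged 736 TPM in dKO, 405 TPM in dCD and 595 TPM in WT. Markers of posterior axial progenitors and mesoderm, cells that express Hoxd genes in the embryo, summed to 1010 to 1090 TPM in dKO, 158 to 172 TPM in dCD and 165 to 170 TPM in WT, nearly all of it Tcf15 (1080, 1020 and 1000 TPM in dKO, 148, 153 and 161 TPM in dCD, and 161, 159 and 157 TPM in WT). Of 7 tested members of that list, 4 were higher and 2 lower in dKO. T (brachyury), its defining gene, averaged 0.643 TPM in dKO, 1.40 TPM in dCD and 1.48 TPM in WT. Wnt3a averaged 0.0417 TPM in dKO, 0.648 TPM in dCD and 2.0 TPM in WT, and Cdx4 was at 0 in all dKO libraries. Other members were higher in dKO: Meox1 averaged 3.63 TPM in dKO, 0.263 TPM in dCD and 0.999 TPM in WT, Nkx1-2 averaged 2.31 TPM in dKO, 0.769 TPM in dCD and 0.748 TPM in WT, and Cdx2 averaged 1.2 TPM in dKO, 4.08 TPM in dCD and 0.572 TPM in WT. Fibroblast and feeder markers summed to 791 to 838 TPM in dKO, 916 to 955 TPM in dCD and 1010 to 1060 TPM in WT, with 3 of 7 tested members higher and 3 lower in dKO and 5 higher and 2 lower in dCD. Most of these sums were Fn1 (520 TPM in dKO, 618 TPM in dCD, 675 TPM in WT) and Vim (270 TPM in dKO, 288 TPM in dCD, 362 TPM in WT). The collagen genes went the other way: Col1a1 averaged 10.2 TPM in dKO, 7.57 TPM in dCD and 0.470 TPM in WT, Col1a2 averaged 1.28 TPM in dKO, 6.45 TPM in dCD and 0.0189 TPM in WT, and Col3a1 averaged 1.11 TPM in dKO, 1.23 TPM in dCD and 0.00873 TPM in WT. Dcn, Lum and Postn averaged under 0.5 TPM in every line. Neural markers summed to 176 to 180 TPM in dKO, 260 to 269 TPM in dCD and 211 to 227 TPM in WT. Of 7 tested members, 5 were higher and 2 lower in dKO, and 6 were higher and 0 lower in dCD. Most of the dCD and WT sums was Tubb3 (85.9 TPM in dKO, 201 TPM in dCD, 185 TPM in WT). Sox1 went the other way in dKO, at 60.1 TPM in dKO, 18.8 TPM in dCD and 14.3 TPM in WT. Endoderm markers summed to 18.1 to 19.1 TPM in dKO, 29.2 to 31.7 TPM in dCD and 9.33 to 10.9 TPM in WT, with 3 of 6 higher in dKO and 4 of 6 in dCD. In dKO the shares of higher fibroblast and endoderm markers were near that of all genes. Trophoblast markers summed to 131 to 136 TPM in dKO, 595 to 632 TPM in dCD and 99.1 to 106 TPM in WT. Of 7 tested, 4 were higher and 1 lower in dKO, and 6 were higher in dCD. Most of the dCD sum was the keratin genes Krt8 (40.5 TPM in dKO, 205 TPM in dCD, 21.9 TPM in WT) and Krt18 (50.6 TPM in dKO, 311 TPM in dCD, 15.0 TPM in WT). Eomes averaged 6.67 TPM in dKO, 6.31 TPM in dCD and 6.26 TPM in WT, and Elf5 had at most 2 reads in any library. The part of these cell types in the Hoxd result was not tested.

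Across the 9 libraries, the genes outside the Hox clusters whose log2 levels were most like those of Hoxd9, the member with the highest mean TPM, were Srek1ip1 (Pearson r = 0.9974), Nbn (0.9957), Wdfy1 (0.9948), Evx1 (0.9943) and Prkra (0.9942). Evx1, a homeobox gene beside the Hoxa cluster, averaged 8.35 TPM in dKO, 0.998 TPM in dCD and 1.18 TPM in WT. These correlations describe a pattern that 29 of 16148 genes shared at r of at least 0.99, and the 9 points are 3 lines of 3 libraries each.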

How the data were processed

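Polyadenylated RNA from 9 libraries of mouse R1 embryonic stem cells (3 dKO, 3 dCD and 3 WT) was analysed; the ChIP-seq, ATAC-seq, Start-seq and other samples of the series were not used here. The authors deposited TPM values per gene and library together with each gene's length. HISAT2, featureCounts and DESeq2 are named with mm9 per the submitters' processing notes, without versions or roles. Annotation and strand setting were not given in the sources used here. Groups were taken from sample titles.

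The 16179 of 48321 genes that reached a TPM of 1 in 3 or more libraries entered limma (version 3.58.1, under R 4.3.3; lmFit, then eBayes with trend) on log2(TPM + 1), all 9 libraries in 1 fit with 3 two-sided contrasts, with Benjamini-Hochberg adjustment and a threshold of 0.05. A fold change on this scale understates the change of low genes. The fit was checked on simulated data. Reads were recovered from TPM times length: 100% of values were whole within 0.01. Library totals were 21090624 to 56249770 reads. Replicates differed by more than sampling noise (chi-square per degree of freedom 1.58 to 4.14), and none were duplicates. Exact intervals of read ratios cover counting error only.

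The members and lists were chosen with earlier results of these data known. Genes were named by rule: the members, their neighbours on the chromosome, their paralogues, Kmt2c and Kmt2d, up to 4 called members per list with the smallest p-values, and the 5 genes outside Hox clusters with the highest Pearson r with the member of highest mean TPM; marker genes, chosen after their values were seen, are given as values only. One gene that the rule named is not reported here. Promoter sequences come from RefSeq (GRCm38.p6), where all 9 members matched by symbol. Symbols in 27 rows had been turned into dates and carry no name. Alternatives were a pseudocount of 0.1, no filter, a minimum of 5 TPM, median-ratio scaling, voom on recovered reads, fits of 2 lines, a replicate block, a 2-fold threshold and leaving out each library; for members below the filter, further fits without it were added after seeing the data. Python 3.11.15 with numpy 2.4.6, pandas 2.3.3 and matplotlib 3.10.9 produced the tables and plots.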

Additional observations from a re-analysis of the deposited data

How the results depend on the processing

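For Hoxd8, Hoxd9 and Hoxd13, every dKO call against WT and dCD kept its direction and an adjusted p below 0.05 under each alternative. Their log2 fold changes were 0.84 to 1.52 against WT and 1.11 to 1.78 against dCD. Hoxd10 and Hoxd11 reached 2.62 and 2.83 on the voom scale, but they entered the test only through dKO and are not support. At a 2-fold threshold Hoxd8 and Hoxd9 were higher in dKO against WT, and Hoxd13, at 0.93, was not. Against dCD, Hoxd8, Hoxd9 and Hoxd13 were higher. Over all 16179 tested genes, 2249 passed that threshold against WT and 1774 against dCD, in either direction. A minimum of 5 TPM left 3 Hoxd genes higher in both contrasts, because Hoxd10 and Hoxd11 were then not tested. The Hoxd13 call in dCD kept its adjusted p under 0.05 at -0.35 to -0.26, and at a 2-fold threshold 0 Hoxd genes were lower in dCD. Leaving out each library gave 1 to 2 Hoxd genes lower in dCD, Hoxd8 or Hoxd9 joining Hoxd13, and the fit without a filter gave 1 higher (Hoxd12). A 2-fold threshold left 2249 of 11617 called genes in dKO against WT, 1123 of 9453 in dCD against WT and 1774 of 11220 in dKO against dCD. Without single libraries these counts were 11084 to 11248, 8717 to 8953 and 10620 to 10754.

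Deviations of same-numbered libraries correlated at -0.049 to 0.042, and those of differently numbered libraries at -0.065 to 0.073. No shared effect of the replicate number was thus seen. The labels do not say whether same-numbered samples were handled together. The replicate block gave 11533, 9273 and 11114 called genes and changed no Hoxd call.

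Signs turned for differences that did not pass as reported. Leaving out single libraries in dCD against WT gave -0.25 to 0.09 for Hoxd10, -0.06 to 0.10 for Hoxd11, -0.13 to 0.02 for Kmt2d, -0.14 to 0.05 for Hoxc11, -0.20 to 0.04 for Hoxc12, and sign changes at -0.03 and -0.04 for Pbx3, 0.04 for Aldh1a2 and -0.01 for Hnrnpa3. In dKO against dCD it gave -0.12 to 0.06 for Hoxb9 and -0.11 to 0.03 for Hoxd12 without a filter. For Hoxd10 and Hoxd11 the sign turned without dCD replicate 2. With voom, Aldh1a2 was at 0.00062 and Hoxc12 at 0.0036 in dCD. Hnrnpa3 was at -0.06 in dKO against WT with median-ratio scaling and with voom, and at -0.07 and -0.08 against dCD. The cause was not tested. Depth limits Hoxd3, Hoxd4 and Hoxd12, at 0 to 19 reads per library, and Hoxd1, at 6 to 24.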
